A study of Mus musculus with 12 samples.

Results

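Smooth muscle contractile genes were followed through 12 libraries of sorted stromal cells of the mouse gut. The set holds 10 named genes (Acta2, Actg2, Myh11, Tagln, Cnn1, Lmod1, Smtn, Synpo2, Des and Myocd) out of 32052 genes in the deposited count table. All 10 were found by symbol, and all 10 passed the filter on low counts, which left 16757 genes for testing. Smooth muscle contracts when myosin filaments pull on actin filaments that are anchored to the membrane and to desmin filaments through dense bodies. In the gut these proteins are made by the cells of the muscle layers, the muscularis mucosae and the vessel walls, and some of them also by myofibroblasts and pericytes. Most of their genes are switched on by serum response factor, which binds a short element called the CArG box, together with the coactivator myocardin.

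The cells were stroma of colon or small intestine, sorted as negative for the epithelial protein EPCAM and the leukocyte protein CD45, and then by a GFP reporter of Rspo3, the gene of the secreted Wnt amplifier R-spondin 3. There were 4 groups of 3 libraries: colon GFP-positive (GFP+), colon GFP-negative (GFP−), small intestine GFP+ and small intestine GFP−. All mice were on a C57Bl6 background at an age of 8 to 12 weeks, and the labels give expression of the Rspo3-GFP transgene as positive or negative. Both colon replicate 2 libraries share an identifier in the count table's column names, and all replicate 3 libraries share another, whose meaning is not stated. Libraries sorted on CD31, named in the design text, are not analysed here. Nothing in the labels says that replicates were separate animals, so the p-values measure the spread between these libraries, which may be technical. The GFP+ gate is not a single cell type: it took cells with the reporter, whatever else they express.

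Library sizes ran from 6489835 to 12286054 counts. Rspo3 itself measured 117 to 161 CPM in colon GFP+ and 2.28 to 6.51 CPM in colon GFP− libraries. Small intestine libraries gave 191 to 196 CPM in GFP+ and 4.50 to 13.7 CPM in GFP− libraries. That difference checks the labels and is no result, since the cells were sorted on it. CPM is the usual count level relative to library size, here after scaling with edgeR's TMM factors. Marker genes of the excluded cell types were present in some libraries. The summed level of 8 epithelial markers was 307 to 1687 CPM in colon GFP+, 1008 to 2380.0 CPM in colon GFP−, 1.91 to 11.1 CPM in small intestine GFP+ and 219 to 731 CPM in small intestine GFP− libraries. The 8 leukocyte markers summed to at most 34.6 CPM in 11 libraries and to 922 CPM in small intestine GFP− replicate 3.

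Promoter sequences from RefSeq (GRCm38.p6) were available for 6 of the 10 genes (Acta2, Cnn1, Des, Lmod1, Smtn and Synpo2), and not for Myh11, Tagln, Myocd and Actg2. The windows, 250 bases before to 50 bases after the annotated start, were searched on both strands for a CArG-type element, CC and GG around 6 inner bases of which at most 1 is not A or T. Acta2 held 2 such elements, and the other 5 windows held none. Across all 32851 promoter windows of the table, 9.98% held at least 1. The strict form, with all 6 inner bases A or T, occurred in 1.63% of windows and in none of these 6. A match is a description of the letters and not evidence of binding, and an absent match says only that the letters are not in this window. The elements of Acta2 began 84 and 34 bases before the RefSeq start, at chr19:34255438-34255467 and chr19:34255388-34255417 on the minus strand with 10 flanking bases on each side, both inside an exon of a longer GENCODE transcript model. They are shown because Acta2 was among the genes that were lower in GFP+ cells of both tissues. Beside it stand Des (chr1:75360042-75360291, plus strand) and Smtn (chr11:3539324-3539542, minus strand). In the fit over all 4 groups Des was called lower in the small intestine and not in the colon, and Smtn was called lower in neither. Lmod1 and Synpo2, whose windows held no element, were also called lower in both tissues, and Cnn1 in the colon. Whether the element goes with the GFP difference was not tested. Capitals mark the CArG-type elements, and only bases outside annotated exons are given for Des and Smtn. The Smtn stretch lies before a RefSeq start that is inside the GENCODE gene (chr11:3517523-3540612). It is therefore not the region before the outermost GENCODE start of Smtn, which was not searched.
Acta2 element at 84: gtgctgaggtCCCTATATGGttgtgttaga
Acta2 element at 34: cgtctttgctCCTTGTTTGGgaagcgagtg
Des: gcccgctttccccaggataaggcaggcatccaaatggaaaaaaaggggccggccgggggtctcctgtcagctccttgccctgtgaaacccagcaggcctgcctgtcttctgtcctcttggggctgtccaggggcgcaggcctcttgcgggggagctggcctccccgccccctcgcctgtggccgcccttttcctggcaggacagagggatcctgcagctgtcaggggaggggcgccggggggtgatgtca
Smtn: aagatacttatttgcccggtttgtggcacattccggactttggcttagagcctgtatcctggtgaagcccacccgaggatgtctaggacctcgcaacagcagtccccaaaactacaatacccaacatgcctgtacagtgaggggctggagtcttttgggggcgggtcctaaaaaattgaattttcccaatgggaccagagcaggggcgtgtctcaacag

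The first question was how the contractile genes differed between GFP+ and GFP− stroma. In the colon, 8 of the 10 fell in GFP+ cells and none rose, at a Benjamini-Hochberg adjusted p under 0.05 over all genes tested with edgeR's quasi-likelihood test. Across all genes, 4.06% were called lower, 4.62% higher and 8.69% in either direction in that comparison. The 10 genes were chosen with earlier results of these data known, so the counts are a description. In the small intestine, 7 of the 10 fell in GFP+ cells and none rose, where 6.63% of all genes were called lower, 4.24% higher and 10.9% in either direction. The median log2 difference of the 10 genes, GFP+ minus GFP−, was -2.35 in the colon and -1.59 in the small intestine, while the median of all genes was -0.03 in both. The small intestine count depended on the fit. Only 4 of the 7 genes (Acta2, Myh11, Lmod1 and Myocd) kept their call without each library, 4 were called on the compared groups alone, and 2 were called on the deposited log2(TPM + 1) scale. With the replicate number as a block 6 were called lower and 1, Smtn, higher. Calls over all genes moved as well. They were 1821 of 16757 in the small intestine, with 850 of 15367 on the compared groups alone and 671 of 16757 on log2(TPM + 1). Without 1 library they were 1239 to 2644, and with the block 1931 of 16757. In the colon 7 of the 8 kept their call without each library. Calls over all genes there were 1456 with all libraries and 816 to 1140 without 1 library. In bulk RNA, fewer cells of a type and less RNA per cell cannot be told apart. Together the 10 genes took 0.0687% to 0.0801% of all counts in colon GFP+ libraries and 0.351% to 0.438% in colon GFP− libraries. They took 0.103% to 0.114% in small intestine GFP+ and 0.161% to 0.455% in small intestine GFP− libraries, so the groups did not overlap in either tissue. Measures that can go with RNA quality also differed between the gates, without overlap in the small intestine. In the colon the protein-coding share did not overlap, but the mitochondrial share did. The share of counts from mitochondrial ribosomal RNA (mt-Rnr1, mt-Rnr2) was 5.83% to 7.10% in colon GFP+, 6.26% to 9.04% in colon GFP−, 5.35% to 7.92% in small intestine GFP+ and 9.73% to 12.7% in small intestine GFP− libraries. Protein-coding genes took 82.9% to 83.9% in colon GFP+, 80.2% to 82.5% in colon GFP−, 78.9% to 83.9% in small intestine GFP+ and 65.9% to 76.1% in small intestine GFP− libraries. Their part in the results was not tested. A fit on protein-coding genes alone called the same 8 members in the colon and, in the small intestine, the same 7 lower with Smtn higher. That fit leaves the protein-coding counts themselves as they were, so it is no test of RNA quality.

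**Figure D1:**
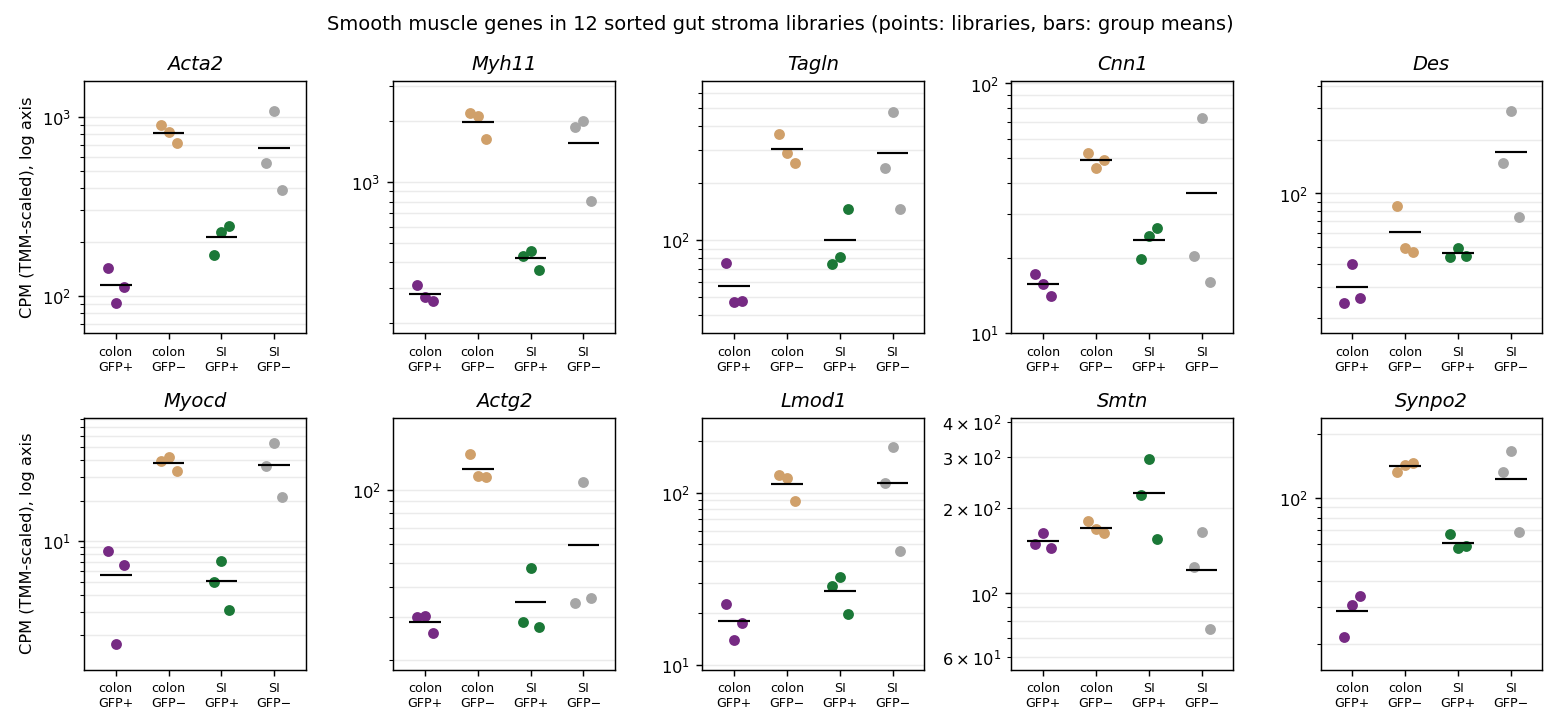
Level of each of the 10 genes in CPM (TMM-scaled, log axis) in the 3 libraries of each group (points) with the group mean (bars). For 8 of the 10 genes the colon GFP+ points lie well below the colon GFP− points, while Smtn stays between 144 and 179 CPM in the 6 colon libraries and is not lower in small intestine GFP+ cells.

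Myh11 encodes the smooth muscle myosin heavy chain, the motor of the contractile apparatus and the most specific marker of this set (chr16:14194535-14291372, minus strand of GRCm38). It measured 310.2, 269.5 and 258 CPM in colon GFP+ replicates 1 to 3, against 2195, 2122 and 1631 CPM in colon GFP− replicates. Small intestine libraries gave 429.9, 458 and 368 CPM for GFP+ replicates, against 1879.6, 2022 and 811 CPM in GFP− replicates. Every GFP+ library lay below every GFP− library of its tissue. The log2 difference was -2.83 ± 0.32 in the colon (SE, n = 3 per group, adjusted p = 2.54e-04) and -1.91 ± 0.31 in the small intestine (adjusted p = 0.00187), or 7.10-fold and 3.75-fold lower in GFP+ cells. Myh11 kept its call without each library in turn in both tissues.

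Acta2, smooth muscle alpha-actin, is shared by smooth muscle, myofibroblasts and pericytes (chr19:34241090-34255590, minus strand). Colon GFP+ replicates had 143, 91.1 and 113 CPM, against 905, 824 and 712 CPM in colon GFP− replicates. Small intestine GFP+ replicates had 169, 226 and 245 CPM, against 549.6, 1077 and 388 CPM in GFP− replicates. Acta2 was thus lower in every GFP+ library than in any GFP− library of the same tissue. It fell by 2.81 ± 0.35 on the log2 scale in the colon (adjusted p = 4.44e-04) and by 1.65 ± 0.33 in the small intestine (adjusted p = 0.00684). Both calls held without each library, while the small intestine call was lost on the compared groups alone (adjusted p = 0.0516).

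Actg2, the gamma-actin of enteric smooth muscle, followed the same course in one tissue (chr6:83512905-83536265, minus strand). It had 29.9, 30.2 and 25.7 CPM in colon GFP+ replicates and 140.2, 114 and 113 CPM in colon GFP− replicates, a fall of 2.10 ± 0.40 (log2, adjusted p = 0.00614). Its small intestine values were 28.5, 47.8 and 27.2 CPM in GFP+ replicates and 34.3, 108 and 35.9 CPM in GFP− replicates. These small intestine groups overlapped, and only GFP− replicate 2 stood above the GFP+ libraries by more than their own range. The log2 difference there was -0.79 ± 0.39 (95% interval -1.64 to 0.06, adjusted p = 0.249), and without that replicate it was -0.02 (adjusted p = 0.981). Reads of the muscle actins may be shared between near-identical genes, so the counts of Acta2, Actg2, Acta1 and Actc1 were also summed, a step chosen after seeing the data. The sum fell by 2.69 ± 0.34 in the colon (adjusted p = 5.05e-04) and by 1.57 ± 0.33 in the small intestine (adjusted p = 0.00853). Acta2 made up 73.8% to 81.9% of it in colon GFP+, 84.9% to 87.3% in colon GFP−, 81.8% to 90.0% in small intestine GFP+ and 90.1% to 93.5% in small intestine GFP− libraries. The striated muscle actins Acta1 and Actc1 together gave at most 3.43% of the sum in any library.

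Among the actin-binding proteins, Tagln (transgelin, SM22-alpha, which bundles actin filaments) fell in both tissues (chr9:45929619-45936058, minus strand). It measured 75.7, 47.0 and 47.9 CPM in colon GFP+ replicates and 363, 291 and 257 CPM in colon GFP− replicates. Small intestine values were 74.5, 81.4 and 146 CPM in GFP+ replicates and 241, 477 and 146 CPM in GFP− replicates. The colon groups stood apart, while in the small intestine the highest GFP+ library and the lowest GFP− library, both replicate 3, were level. The log2 difference was -2.42 ± 0.41 in the colon (adjusted p = 0.00316) and -1.52 ± 0.40 in the small intestine (adjusted p = 0.0301). The small intestine call was lost without GFP+ replicate 1 (adjusted p = 0.114), GFP+ replicate 2 (0.118) or GFP− replicate 2 (0.0822), and also with the replicate number as a block (0.0776), without a filter on low counts (0.0722), on the compared groups alone (0.110) and on log2(TPM + 1) (0.142). Tagln overlaps Pcsk7 and an antisense RNA on the opposite strand, and whether counting used strand is not given in the sources used here. Pcsk7 had 3317 counts over the 12 libraries and Tagln 18951.

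Lmod1, leiomodin 1, starts actin filaments in smooth muscle (chr1:135324807-135368065, plus strand). It had 22.4, 13.9 and 17.5 CPM in colon GFP+ replicates and 127, 122 and 88.9 CPM in colon GFP− replicates. It had 28.6, 32.2 and 19.7 CPM in small intestine GFP+ replicates and 113, 184 and 45.8 CPM in GFP− replicates. No GFP+ library reached a GFP− library of its tissue. Lmod1 fell by 2.65 ± 0.42 in the colon (log2, adjusted p = 0.00212) and by 2.09 ± 0.41 in the small intestine (adjusted p = 0.00667). Both calls held without each library. On log2(TPM + 1), a scale that shrinks differences of low genes, the colon difference was -1.66 (adjusted p = 0.00393) and the small intestine call was lost (-1.09, 0.0572).

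Synpo2, synaptopodin 2 or myopodin, is an actin-binding protein of dense bodies and Z-discs (chr3:123076519-123236149, minus strand). It measured 21.8, 30.6 and 33.9 CPM in colon GFP+ replicates and 132, 143 and 146 CPM in colon GFP− replicates. It measured 66.9, 57.7 and 58.6 CPM in small intestine GFP+ replicates and 132, 167 and 68.2 CPM in GFP− replicates. The gap was wide in the colon, and in the small intestine GFP− replicate 3 was close to the highest GFP+ library. The log2 difference was -2.29 ± 0.28 in the colon (adjusted p = 4.58e-04) and -1.0 ± 0.27 in the small intestine (adjusted p = 0.0324). The small intestine call held without GFP− replicate 3 (adjusted p = 0.00181) but was lost without any other of the 6 libraries, at adjusted p of 0.0713 to 0.103. It was also lost by limma-voom (0.0519), on the compared groups alone (0.137) and on log2(TPM + 1) (-0.43, 0.336), where the colon difference was -1.27 (0.00305).

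Cnn1, calponin 1, is a thin-filament protein that slows the myosin motor (chr9:22099216-22109630, plus strand). It differed in the colon by a call that, in the fit over all 4 groups, any 1 colon library could end. It had 17.3, 15.7 and 14.1 CPM in colon GFP+ replicates and 52.8, 45.9 and 49.3 CPM in colon GFP− replicates. Its small intestine values were 19.8, 24.4 and 26.3 CPM in GFP+ replicates and 20.3, 72.5 and 15.9 CPM in GFP− replicates. The colon groups were tight and well apart, while in the small intestine the GFP+ libraries lay inside the range of the GFP− libraries, whose spread was the widest of the 10 genes in that group. Cnn1 fell by 1.65 ± 0.45 in the colon (log2, adjusted p = 0.0397). The adjusted p was 0.096 to 0.143 without 1 of the 6 colon libraries and 0.103 without a filter on low counts. Fitted on the compared colon groups alone, Cnn1 was called lower with a smaller error (-1.65 ± 0.15, adjusted p = 2.97e-05). The small intestine difference was -0.63 ± 0.44 (95% interval -1.58 to 0.32, adjusted p = 0.439). Without small intestine GFP− replicate 2 it was 0.38 in the other direction (adjusted p = 0.268).

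Smtn, smoothelin, a cytoskeletal protein used as a marker of contractile smooth muscle, did not follow the other genes (chr11:3517523-3540612, minus strand). It measured 149.5, 162 and 144 CPM in colon GFP+ replicates and 179, 168 and 163 CPM in colon GFP− replicates. It measured 221, 297 and 155 CPM in small intestine GFP+ replicates and 123, 165 and 75.3 CPM in GFP− replicates. In the colon the groups were almost level, and in the small intestine the GFP+ values tended higher with 1 library overlapping. The log2 difference in the colon was -0.16 ± 0.27 (95% interval -0.75 to 0.43, adjusted p = 0.835). That interval does not reach the estimate of any of the 8 called genes, but it overlaps the interval of Cnn1 (-2.63 to -0.67). For the small intestine it was 0.89 ± 0.28 (95% interval 0.29 to 1.48, adjusted p = 0.0583), just above the threshold. With the replicate number as a block Smtn was called higher in small intestine GFP+ cells (0.91 ± 0.13, adjusted p = 0.00408), as it was by DESeq2 (0.0201), among protein-coding genes alone (0.0427), without a filter on low counts (0.0220), without GFP+ replicate 3 (0.0278) and without GFP− replicate 2 (0.0131). It was not called by limma-voom (0.0545), on the compared groups alone (0.251) or on log2(TPM + 1) (0.372).

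Des encodes desmin, the intermediate filament of muscle cells (chr1:75360329-75368579, plus strand). It had 24.3, 40.1 and 25.8 CPM in colon GFP+ replicates and 85.1, 49.7 and 47.0 CPM in colon GFP− replicates. It had 43.8, 49.7 and 44.8 CPM in small intestine GFP+ replicates and 148, 290.2 and 73.5 CPM in GFP− replicates. The groups did not overlap in either tissue, but in the colon the gap was small and GFP− replicate 1 stood above the other two. Des fell by 1.89 ± 0.42 on the log2 scale in the small intestine (adjusted p = 0.0132), with adjusted p of 0.0506 to 0.0569 without any 1 of the GFP+ libraries. In the colon the difference was -1.01 ± 0.42 (95% interval -1.92 to -0.10, adjusted p = 0.194). On the compared groups alone Des was called lower in the colon (adjusted p = 0.0413), and on log2(TPM + 1) its small intestine call was lost (-1.09, 0.136).

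Myocd, myocardin, the muscle-restricted coactivator of serum response factor, fell in both tissues (chr11:65176561-65269989, minus strand). It measured 8.46, 1.72 and 6.63 CPM in colon GFP+ replicates, from 77, 13 and 58 counts, and 39.0, 42.4 and 33.3 CPM in colon GFP− replicates. It measured 4.99, 7.10 and 3.07 CPM in small intestine GFP+ replicates, from 60, 72 and 26 counts, and 36.1, 53.3 and 21.1 CPM in GFP− replicates. All 6 GFP+ libraries lay below all 6 GFP− libraries. The log2 difference was -2.76 ± 0.51 in the colon (adjusted p = 0.00490) and -2.86 ± 0.51 in the small intestine (adjusted p = 0.00378). Both calls held without each library. On log2(TPM + 1) the colon difference was -1.49 (adjusted p = 0.0189) and the small intestine call was lost (-0.85, 0.222). With so few counts in GFP+ cells, these fold changes of 6.77 and 7.25 carry the widest errors of the set.

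**Figure D2:**
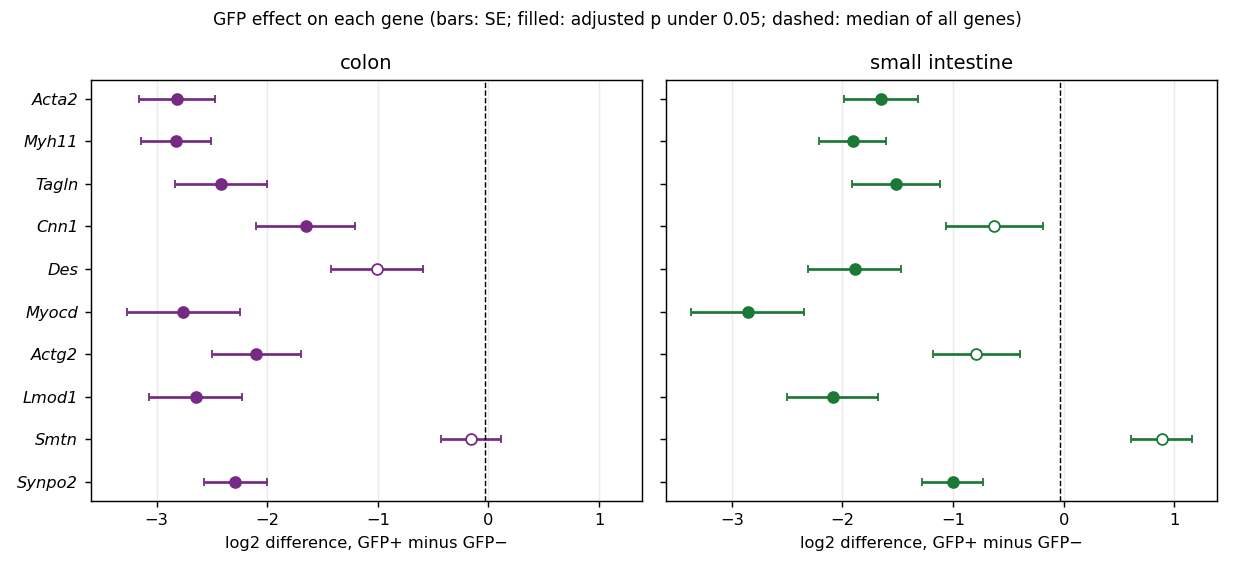
Log2 difference of each gene, GFP+ minus GFP−, in colon and small intestine, with SE bars, filled where the adjusted p is under 0.05, and the median of all genes dashed. The colon differences of Acta2, Myh11, Myocd and Lmod1 lie between -2.83 and -2.65, and Smtn stands apart on the right in both tissues.

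Without regard to the test, every one of the 10 genes was lower in all colon GFP+ libraries than in any colon GFP− library, where 17.8% of all genes had this order. Smtn met it narrowly, with its highest GFP+ library at 162.4 CPM against 162.6 CPM in the lowest GFP− library. In the small intestine 6 of the 10 genes had this order, where 12.3% of all genes did.

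The second question was whether the GFP difference itself depended on the tissue, tested as an interaction term (colon effect minus small intestine effect). None of the 10 genes was called, where 2.06% of all genes were, although 5 of them (Acta2, Myh11, Actg2, Smtn and Synpo2) had an unadjusted p under 0.05 with edgeR. DESeq2 called 1 of them, Synpo2 (adjusted p = 0.0328), and limma-voom 0. The estimates were -1.28 ± 0.39 for Synpo2 (95% interval -2.12 to -0.45, adjusted p = 0.112), -1.31 ± 0.55 for Actg2 (0.290), -1.16 ± 0.46 for Acta2 (0.254) and -1.05 ± 0.39 for Smtn (0.216). For Myocd the estimate was 0.10 ± 0.68 (95% interval -1.38 to 1.58). Des was the only member besides Myocd whose estimate was positive, at 0.88 ± 0.58 (0.566). The calls depended on small intestine GFP− replicate 2, the highest library of its group for all 10 genes. Leaving it out lowers their level in small intestine GFP− cells. Without it 5 genes were called lower: Cnn1 (-2.03, adjusted p = 0.00265), Actg2 (-2.08, 0.00429), Acta2 (-1.69, 0.0118), Synpo2 (-1.58, 0.0232) and Smtn (-1.34, 0.0474). Over all genes, 1044 of 17584 were called in that fit, 597 of them lower, against 345 of 16757 with all libraries, 150 of them lower. With the replicate number as a block 2 genes were called lower, Smtn (adjusted p = 0.0344) and Actg2 (0.0447).

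The tissues were then compared within each gate. In GFP+ cells only Synpo2 was called, lower in the colon than in the small intestine by 1.09 ± 0.28 on the log2 scale (28.8 ± 6.30 CPM in colon and 61.0 ± 5.08 CPM in small intestine, mean ± SD, adjusted p = 0.0429). Across all genes 4.57% were called in that comparison. The call was lost without any 1 of the 6 libraries, at adjusted p of 0.0795 to 0.190. In 5 genes (Acta2, Myh11, Cnn1, Des and Synpo2) every colon GFP+ library lay below every small intestine GFP+ library, an order that 11.8% of all genes had. The other 9 genes had log2 differences, colon minus small intestine, of -0.88 (Acta2, adjusted p = 0.181) to 0.15 (Myocd). In GFP− cells none of the 10 was called by edgeR, where 4.21% of all genes were, while 2 genes had an unadjusted p under 0.05. In 1 gene, Actg2, every colon GFP− library lay above every small intestine GFP− library, an order that 11.5% of all genes had. The genes with an unadjusted p under 0.05 were Des at -1.50 ± 0.42 (60.6 ± 21.3 CPM in colon and 171 ± 110.1 CPM in small intestine, adjusted p = 0.0701) and Actg2 at 1.04 ± 0.39 (123 ± 15.3 CPM in colon and 59.4 ± 42.2 CPM in small intestine, adjusted p = 0.166). DESeq2 called Des lower in colon GFP− cells (adjusted p = 0.00503), as did edgeR without small intestine GFP− replicate 3 (0.00872) and edgeR among protein-coding genes (0.0497). Without small intestine GFP− replicate 2, Actg2 was called higher in the colon (1.81 ± 0.26, adjusted p = 0.00233), and so was Cnn1 (1.45 ± 0.22, 0.00361). The remaining 8 genes differed between the GFP− groups by -0.02 (Lmod1) to 0.49 (Smtn) on the log2 scale, each with a 95% interval that includes 0. In order of the summed level of all 10 genes, colon GFP− (3794 ± 500.2 CPM) and small intestine GFP− (3191 ± 1469 CPM) overlapped. Small intestine GFP+ (1154 ± 110.1 CPM) and colon GFP+ (731 ± 62.9 CPM) followed, without overlap between these or with the GFP− groups.

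The spread between replicates was itself uneven across the groups. The median coefficient of variation of the 10 genes was 22.2% in colon GFP+, 12.2% in colon GFP−, 21.3% in small intestine GFP+ and 56.4% in small intestine GFP− libraries. For all genes with a mean of at least 10 CPM the medians were 11.6%, 12.3%, 21.2% and 28.5% in the same order. In small intestine GFP− cells, replicate 2 was the highest of 3 for 10 of the 10 genes and replicate 3 the lowest for 9 of them. Among all genes of that group, replicate 2 was highest for 37.7% and replicate 3 lowest for 36.1%. The median deviation from the group mean was 0.86 in replicate 2, 0.04 in replicate 1 and -0.78 in replicate 3 on the log2 scale. The 10 genes summed to 3278, 4615 and 1679.9 CPM in replicates 1 to 3. Smtn took part in this spread, at 165 CPM in replicate 2 and 75.3 CPM in replicate 3, although it did not follow the other genes between groups. Replicate 3 also had the lowest share of protein-coding counts of the 12 libraries, 65.9%.

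**Figure D3:**
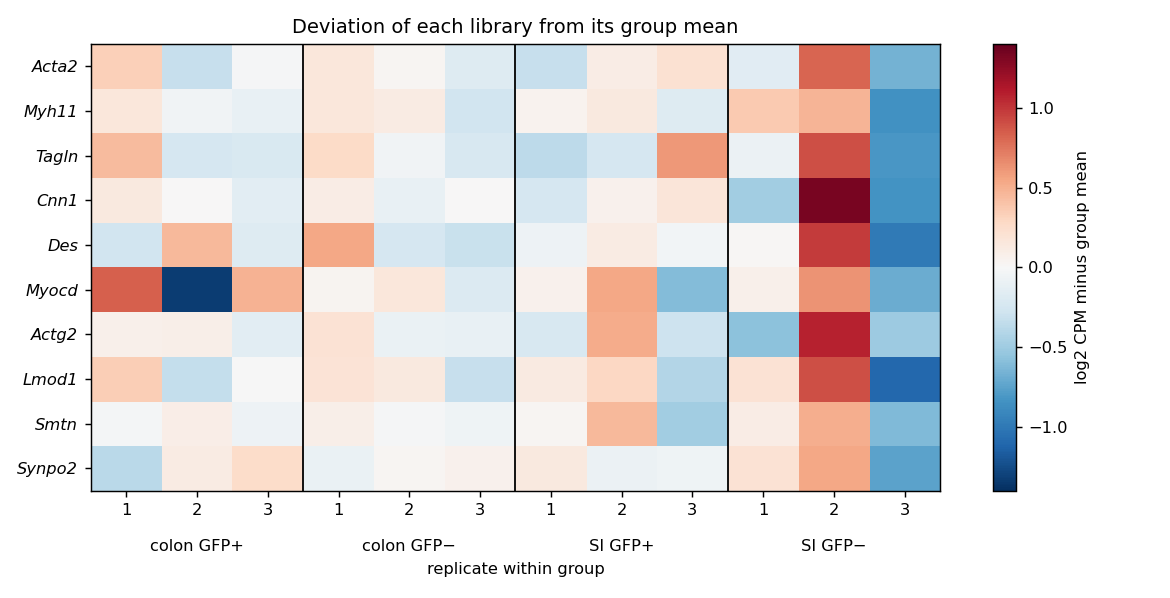
Deviation of each library from its group mean in log2 CPM, 1 row per gene and 1 column per library in 4 groups of 3. Small intestine GFP− replicate 2 is above its group mean for all 10 genes and replicate 3 below it for all 10, while the colon GFP− columns are pale apart from Des in replicate 1.

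Other marker sums moved in the same libraries. Over small intestine GFP− replicates 1 to 3, 9 pericyte markers summed to 1094, 1985 and 568 CPM, and 10 fibroblast markers to 7723, 22529 and 9150.3 CPM. The 8 blood endothelial markers summed to 3323, 2348 and 944 CPM, the 8 epithelial markers to 453, 219 and 731 CPM and the 8 leukocyte markers to 18.2, 11.7 and 922 CPM. The 10 telocyte and subepithelial myofibroblast markers summed to 815, 1485 and 729.7 CPM. Pericyte markers and these telocyte and myofibroblast markers thus had the same order as the contractile genes, and leukocyte and epithelial markers the opposite one. Their part in the spread of the contractile genes was not tested. In colon GFP+ cells the single widest spread was that of Myocd, whose replicate 2 rested on 13 counts.

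Levels can be compared between genes only per length, so the deposited TPM values were ranked within each library. Acta2 was the highest of the 10 genes per length in 10 of 12 libraries, the exceptions being colon GFP+ replicates 1 and 2, where Tagln was highest. Smtn ranked 2nd or 3rd in every GFP+ library of both tissues, 5th in all colon GFP− libraries and 4th or 5th in small intestine GFP− libraries. Its TPM relative to that of Myh11 was 1.24, 1.71 and 1.65 in colon GFP+ replicates and 0.247, 0.234 and 0.285 in colon GFP− replicates. This ratio was, in the small intestine, 1.55, 1.82 and 1.48 in GFP+ and 0.239, 0.367 and 0.306 in GFP− replicates. The ranges were far apart in both tissues. These ratios restate, within single libraries, the separate course of Smtn and Myh11, and a ratio does not say which of the genes changed.

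**Figure D4:**
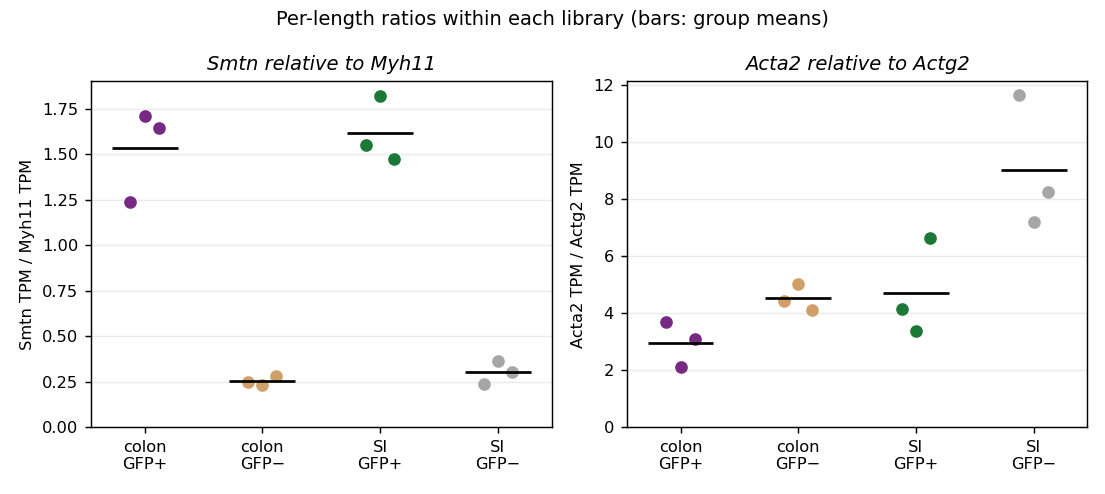
TPM of Smtn relative to Myh11 and of Acta2 relative to Actg2 in each library (points) with group means (bars), both axes starting at 0. Smtn lies at 1.24 to 1.82 times Myh11 in the 6 GFP+ libraries and at 0.234 to 0.367 times in the 6 GFP− libraries.

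The ratio of the actins differed between tissues in GFP− cells, while the GFP+ groups of the tissues overlapped. Acta2 TPM was 3.68, 2.11 and 3.10 times Actg2 TPM in colon GFP+ replicates and 4.44, 5.02 and 4.11 times in colon GFP− replicates. It was 4.17, 3.37 and 6.62 times in small intestine GFP+ replicates and 11.7, 7.21 and 8.25 times in GFP− replicates. The small intestine GFP− libraries thus had the highest share of Acta2, without overlap with any other group. Des relative to Acta2 was 0.106 to 0.227 in colon GFP+ and 0.0362 to 0.0489 in colon GFP− libraries. It was 0.133 to 0.165 in small intestine GFP+ and 0.0944 to 0.165 in small intestine GFP− libraries, so colon GFP− cells had the lowest values.

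Across the 12 libraries, 8 of the genes moved together. The Pearson correlation of a gene's log2 CPM with the mean of the other 9 was 0.97 for Acta2 and Lmod1, 0.95 for Myh11, 0.94 for Tagln, 0.93 for Synpo2, 0.88 for Cnn1, 0.87 for Actg2 and 0.85 for Myocd. It was 0.69 for Des and -0.04 for Smtn. The libraries fall into 4 groups, so these values mostly restate the group differences. After the group means were removed, Smtn stood at 0.78 and Des at 0.82, within the range of the other genes, 0.51 (Myocd) to 0.91 (Lmod1).

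The 10 protein-coding genes whose levels were most like the mean pattern of the contractile genes were found among 9331 candidates whose mean log2 CPM was 3 or more. In order of their Pearson correlation over the 12 libraries they were Flna (0.987), Tpm2 (0.972), Mylk (0.966), Arhgef17 (0.959), Myl9 (0.956), Adcy5 (0.952), Gm13889 (0.942), Tpm1 (0.941), Kcnh2 (0.940) and Gpr161 (0.938). Flna encodes filamin A, an actin cross-linker. Tpm1 and Tpm2 encode tropomyosins, Mylk the kinase and Myl9 the regulatory light chain of smooth muscle myosin. Adcy5 encodes an adenylyl cyclase, Kcnh2 a potassium channel and Gpr161 an orphan receptor. The points share libraries, groups and depth, so the correlations are given without a test.

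Other genes of the contractile machinery were counted from lists of the pathway. Across all genes, 4.06% were called lower and 4.62% higher in the colon, and 6.63% and 4.24% in the small intestine. These shares stand beside every list count below, and a single call in a list cannot be set apart from them. The lists were chosen with earlier results of these data known, so their counts are a description and no independent support. Of 19 further filament and anchoring genes, 10 fell and none rose in colon GFP+ cells (median log2 difference -0.87), and 9 fell and none rose in small intestine GFP+ cells (median -0.77). Tpm1 averaged 197 CPM in colon GFP+ and 813 CPM in colon GFP− cells (log2 difference -2.05 ± 0.27, adjusted p = 5.91e-04), and 261 CPM in small intestine GFP+ and 562 CPM in small intestine GFP− cells. Tpm2 averaged 60.4 CPM in colon GFP+ and 309.8 CPM in colon GFP− cells (-2.36 ± 0.32, adjusted p = 7.04e-04). Flna averaged 634 CPM in colon GFP+ and 2031 CPM in colon GFP− cells (-1.68 ± 0.29, adjusted p = 0.00274), and missed the threshold in the small intestine (-0.94 ± 0.28, adjusted p = 0.0511). Among the small intestine calls of this list were Ldb3, a Z-disc protein (-4.51 ± 0.87, adjusted p = 0.00536), and Dmd, dystrophin (-1.53 ± 0.32, 0.00775). Without each library in turn, 5 of the 10 colon calls and 3 of the 9 small intestine calls held throughout.

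Genes that set myosin phosphorylation did not share 1 direction. In colon GFP+ cells 4 of 12 fell and 2 rose, and in small intestine GFP+ cells 2 of 12 fell and none rose. Across all genes 8.69% were called in the colon and 10.9% in the small intestine, so the small intestine count is no trait of this list. Without each library in turn, 4 of the 6 colon calls and none of the 2 small intestine calls held throughout. Mylk, which phosphorylates the myosin light chain, averaged 138 CPM in colon GFP+ and 524 CPM in colon GFP− cells (log2 difference -1.92 ± 0.24, adjusted p = 4.80e-04). Its small intestine mean was 225 CPM in GFP+ and 458 CPM in GFP− cells (-1.03 ± 0.24, 0.0145), a call lost in 2 of the 6 fits without a library. Ppp1r14a, the inhibitor of myosin phosphatase known as CPI-17, fell in the colon (22.3 CPM in GFP+ and 82.2 CPM in GFP− cells, adjusted p = 0.00152). The members that rose in the colon, Gucy1b1 (364 CPM in GFP+ and 118 CPM in GFP− cells, 1.62 ± 0.26, adjusted p = 0.00190) and Gucy1a1 (465 and 160.2 CPM, 1.54 ± 0.28, 0.00359), encode the nitric oxide receptor guanylyl cyclase, which acts towards relaxation.

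Among 12 genes of excitation and calcium handling, 5 fell and 1 rose in colon GFP+ cells, and 4 fell and 1 rose in small intestine GFP+ cells. Of these calls, 3 of 6 in the colon and 2 of 5 in the small intestine held without each library. Cacna1c, the L-type calcium channel, averaged 4.8 CPM in colon GFP+ and 27.0 CPM in colon GFP− cells (-2.48 ± 0.54, adjusted p = 0.0125). Its small intestine mean was 7.5 CPM in GFP+ and 37.7 CPM in GFP− cells (-2.32 ± 0.53, 0.0145), and in each tissue 2 of the 6 fits without a library lost the call. Kcnmb1, the beta subunit of the calcium-activated potassium channel, averaged 2.5 CPM in colon GFP+ and 19.1 CPM in colon GFP− cells (adjusted p = 0.00159). P2rx1, an ATP-gated channel of smooth muscle, averaged 4.66 CPM in small intestine GFP+ and 43.9 CPM in small intestine GFP− cells (-3.22 ± 0.56, adjusted p = 0.00479). In the colon it had 0 counts in GFP+ and 45 counts in GFP− cells, at least 16.2-fold lower in GFP+ cells when its group total is set to 3 counts, a limit for counting error alone. The exception was Chrm3, the M3 muscarinic receptor, which rose in GFP+ cells of both tissues. It averaged 7.36 CPM in colon GFP+ and 0.93 CPM in colon GFP− cells (2.98 ± 0.58, adjusted p = 0.00615), and 17.8 CPM in small intestine GFP+ and 3.55 CPM in small intestine GFP− cells (2.32 ± 0.54, 0.0144). The small intestine call was lost in 1 of the 6 fits without a library.

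Of 14 transcription factors of smooth muscle or of its gut precursors, 3 fell and 2 rose in colon GFP+ cells, and 4 fell and 1 rose in small intestine GFP+ cells. Only 2 of the 5 colon calls and 1 of the 5 small intestine calls held without each library. Foxf2, a forkhead factor of gut mesenchyme, averaged 9.09 CPM in colon GFP+ and 80.9 CPM in colon GFP− cells (-3.15 ± 0.45, adjusted p = 0.00108). Nkx2-3, a homeobox factor of gut mesenchyme, fell in the colon (32 CPM in GFP+ and 133 CPM in GFP− cells, adjusted p = 0.00318) and in the small intestine (80.3 CPM in GFP+ and 200.5 CPM in GFP− cells, 0.0280). Klf4, which represses contractile genes in vascular smooth muscle, averaged 538 CPM in small intestine GFP+ and 231 CPM in small intestine GFP− cells (1.22 ± 0.31, adjusted p = 0.0230). The calls of Nkx2-3 and Klf4 in the small intestine were each lost in 3 of the 6 fits without a library. Srf itself differed by -0.63 ± 0.24 in the colon (adjusted p = 0.147) and -0.44 ± 0.24 in the small intestine (adjusted p = 0.30), and Mrtfa, the widely expressed coactivator related to myocardin, by 0.15 ± 0.18 and -0.15 ± 0.18 (0.739 and 0.687). Of 8 genes of non-muscle actin and myosin none was called in the colon. Of them 1, Myh10, was higher in small intestine GFP+ cells (0.76 ± 0.23, adjusted p = 0.0496), where 4.24% of all genes were called higher. Its direction flipped on the deposited log2(TPM + 1) scale (-0.29).

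**Figure D5:**
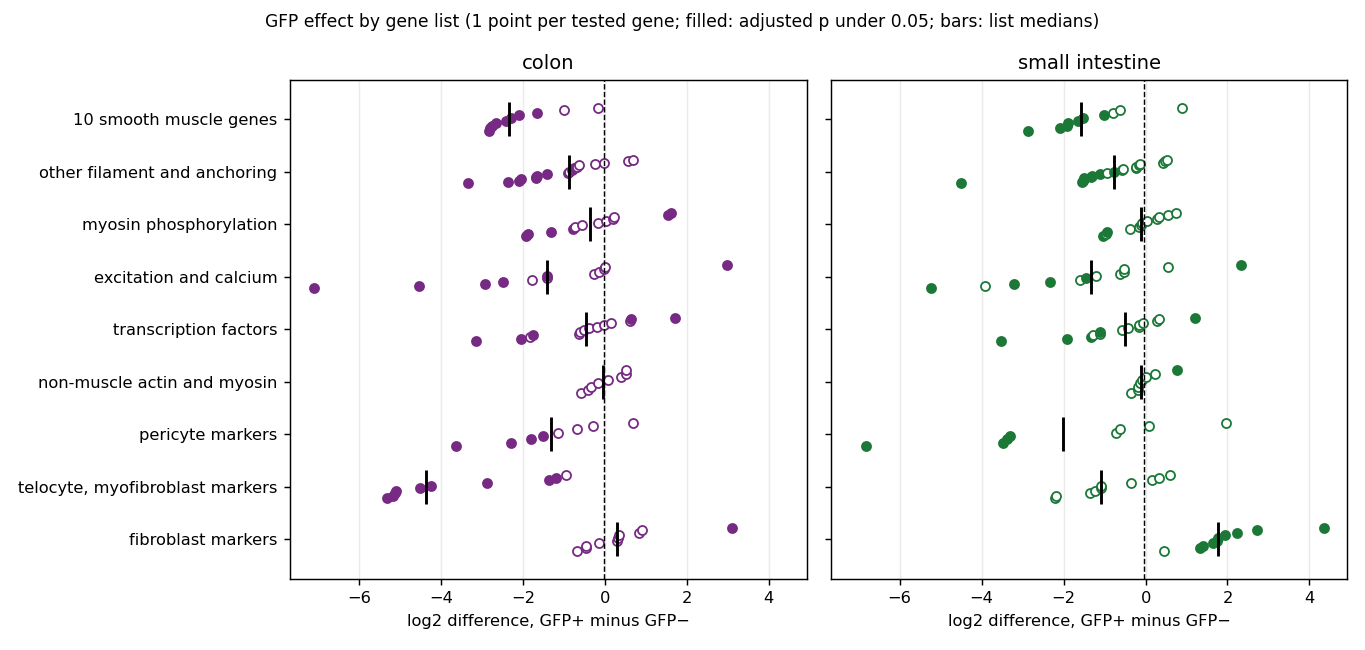
Log2 difference, GFP+ minus GFP−, of each tested gene by list in colon and small intestine (points, filled where the adjusted p is under 0.05) with list medians as bars. The contractile genes and the further filament genes lie mostly left of 0 in both tissues, while fibroblast markers lie right of 0 in the small intestine and around 0 in the colon.

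Markers of other cells that express some of these genes also differed between the gates. Across all genes, 4.06% were called lower and 4.62% higher in the colon, and 6.63% and 4.24% in the small intestine. Of 8 tested pericyte markers 4 fell in colon GFP+ cells, among them Cspg4 (23.5 CPM in GFP+ and 82.1 CPM in GFP− cells) and Notch3 (2.77 and 34.6 CPM), and 4 fell in small intestine GFP+ cells, among them Cspg4 (19.0 and 196 CPM) and Notch3 (1.31 and 153 CPM). Of these, 2 of the 4 colon calls and 3 of the 4 small intestine calls held without each library. All 9 listed pericyte markers summed to 219 to 235 CPM in colon GFP+, 498 to 823 CPM in colon GFP−, 484 to 668 CPM in small intestine GFP+ and 568 to 1985 CPM in small intestine GFP− libraries, with Higd1b at 0 in all GFP+ libraries. Of 10 telocyte and subepithelial myofibroblast markers, 9 fell in colon GFP+ cells, 6 of them also without each library, and none was called in small intestine GFP+ cells. Their sum was 761 to 827 CPM in colon GFP+, 2786 to 2839 CPM in colon GFP−, 786 to 1635 CPM in small intestine GFP+ and 729.7 to 1485 CPM in small intestine GFP− libraries. Of 10 fibroblast markers, 1 (Grem1) rose in colon GFP+ cells and 9 rose in small intestine GFP+ cells. They summed to 20175 to 24726 CPM in colon GFP+, 24549.9 to 27013 CPM in colon GFP−, 39922 to 61195 CPM in small intestine GFP+ and 7723 to 22529 CPM in small intestine GFP− libraries. Of 7 lymphatic endothelial markers, 6 rose in GFP+ cells of either tissue, with sums of 18003 to 21049 CPM in colon GFP+, 205 to 335 CPM in colon GFP−, 4302 to 14985 CPM in small intestine GFP+ and 200.2 to 589 CPM in small intestine GFP− libraries. The part of these cell types in the differences of the contractile genes was not tested. Of 12 striated muscle genes 9 were in the table, and their sum stayed between 6.21 and 36.3 CPM in all 12 libraries.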

How the data were processed

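RNA of sorted mouse gut stromal cells was sequenced from total RNA after enzymatic removal of ribosomal RNA, per the labels' protocols. The submitters' processing notes name Salmon 1.1.0, R 3.6.1 and the mm10 build; annotation, filters and rounding are not given in the sources used here. The authors deposited estimated counts per gene (expected counts, whole in 100% of values and so taken as rounded) and a table on the log2 scale, log2(TPM + 1). Non-coding genes took 91.9% to 95.3% of TPM, so TPM served only for order and ratios within a library and as an alternative.

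Identifiers were matched to GENCODE M21 (GRCm38, the assembly of mm10), which named 32001 of 32052. Counts were tested with edgeR 4.0.16 in R 4.3.3 (quasi-likelihood, robust, TMM factors, filterByExpr with a minimum count of 10, 1 mean per group over all 12 libraries), and Benjamini-Hochberg adjusted p under 0.05 over 16757 genes was a call. SE were taken from the F statistic. Steps were tested on simulated data. Comparisons were GFP+ minus GFP− in each tissue, colon minus small intestine in each gate, and the difference of the GFP effects. Alternatives were RLE factors, no filter, protein-coding genes alone, the compared groups alone, limma-voom (limma 3.58.1), limma on log2(TPM + 1), DESeq2 1.42.0, the replicate number as a block, each library left out and, chosen after seeing the data, muscle actins summed.

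Replicate numbers paired the small intestine libraries, where the deviations of same-numbered libraries from their group means correlated at 0.32, 0.18 and 0.17, all over 0.1. In the colon they correlated at 0.01, 0.05 and 0.09, and the labels tie no number to an animal or day. Between tissues they correlated at 0.02, 0.05 and 0.05 in GFP+ cells and at 0.10, 0.03 and 0.22 in GFP− cells. The last value is for replicate 3, whose libraries share an identifier. The comparisons between tissues took the libraries as independent except in the block fit. Libraries of 1 group differed by more than sampling noise (chi-square per gene of 10.7 to 127), so none was merged.

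The members and lists were chosen with earlier results of these data known. Named genes are the 10 members, up to 4 called genes per list by adjusted p (or 2 by mean CPM where none was called), the 10 genes most like the members' mean pattern, Rspo3 and muscle actins. Genes outside that rule (Flna in the small intestine, Srf, Mrtfa) were named after their values were seen. Not every gene that the rule allows is printed, and some are not reported here.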

Additional observations from a re-analysis of the deposited data

Results flagged for a closer look

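For 14 genes of the lists above, the GFP difference in the colon departed from that in the small intestine by the test of the difference itself (interaction term of edgeR, adjusted p under 0.05). None of the 10 contractile genes was among them. Across all genes 345 of 16757, or 2.06%, were called by that test. By list, the calls were 5 of 10 tested telocyte and myofibroblast markers, 3 of 10 fibroblast markers and 3 of 8 epithelial markers. The pericyte markers (8 tested), transcription factors (14 tested) and genes of myosin phosphorylation (12 tested) gave 1 call each. Values are the colon log2 difference minus the small intestine log2 difference. Of the telocyte and myofibroblast markers, Wnt5a stood at -3.05 (adjusted p = 0.00247), Bmp3 at -4.75 (0.0180), Bmp7 at -4.04 (0.0196), Bmp5 at -2.89 (0.0432) and Pdgfra at -1.98 (0.0425). Wnt5a averaged 18.0 CPM in colon GFP+ and 133 CPM in colon GFP− cells, while the small intestine means were 38.4 CPM in GFP+ and 34.1 CPM in GFP− cells. The fibroblast markers Lum (-2.38), Col1a2 (-2.23) and Col3a1 (-2.33) were higher in GFP+ cells of the small intestine alone by call. The epithelial keratins Krt19 (6.69), Krt8 (5.34) and Krt20 (5.97) were called lower in small intestine GFP+ cells and not called in the colon. The pericyte marker Mcam stood at 2.80, the transcription factor Mef2c at 2.84, and Pde5a, the phosphodiesterase that ends cyclic GMP signals, at -1.59. Leaving out 1 library at a time kept the call of Wnt5a in all 12 fits, and each of the other 13 lost it in at least 3.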

How the results depend on the processing

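Over all alternatives that were run, 674 of the members' values kept direction and side of the threshold, 37 lost their call, 24 gained one and 25 turned sign. The 10 genes stayed mostly lower in GFP+ cells, with 7 of them called in the colon without any 1 library and 4 to 7 in the small intestine. Fitted on the compared groups alone, 4 were called in the small intestine, and on log2(TPM + 1) 2 were. For colon against small intestine in GFP+ cells, 2 were called on the compared groups alone, 0 by limma-voom, 0 on log2(TPM + 1) and 0 without any 1 library. In GFP− cells 1 was called among protein-coding genes, 1 on log2(TPM + 1), 1 by DESeq2 and 0 to 2 without 1 library. For the difference of the GFP effects 1 was called without a low-count filter, 1 by DESeq2 and 0 to 5 without 1 library.

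With the replicate number as a block, 2 of the 10 genes were called for the difference of the GFP effects. In the small intestine, where the numbers pair the libraries, Smtn gained its call and Tagln lost it, and no other call of a member in a GFP comparison changed under the block. Calls over all genes were then 1931 for the small intestine and 1535 for the colon, where the number is only shared. Between tissues, edgeR with the block kept the call of Synpo2 in GFP+ cells (adjusted p = 0.0495). It called no member in GFP− cells, where Actg2 stood at 0.0529 and Des at 0.0594.

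Calls over all genes in the small intestine GFP comparison were 1821, with 850 on the compared groups alone, 671 on log2(TPM + 1) and 1239 to 2644 without 1 library. In the colon GFP comparison they were 1456, with 3016 on the compared groups alone and 816 to 1140 without 1 library. Between tissues in GFP+ cells they were 765, with 364 by limma-voom, 376 on log2(TPM + 1), 1390.0 by DESeq2 and 416 to 613 without 1 library. In GFP− cells they were 706, with 406 on the compared groups alone, 1509 on log2(TPM + 1), 1635 by DESeq2 and 187 to 1229 without 1 library. For the difference of effects they were 345, with 179 by limma-voom, 160.0 on log2(TPM + 1), 1088 by DESeq2 and 69 to 1044 without 1 library. On log2(TPM + 1) the split of higher and lower calls was 343 and 328 in the small intestine (710.0 and 1111 on counts), 311 and 65 between tissues in GFP+ cells (461 and 304), 1318 and 191 in GFP− cells (369 and 337), and 49 and 111 for the difference of effects (195 and 150.0). By limma-voom the last split was 64 and 115. That scale moved the median of all genes by 0.15 between tissues in GFP+ cells and 0.25 in GFP− cells, and DESeq2 moved it by 0.14 for the difference of effects.

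Signs turned mainly where differences lay near 0. In the small intestine GFP comparison Cnn1 ranged from -0.98 to 0.38 without 1 library, turning without GFP− replicate 2, and Myh10 was -0.29 on log2(TPM + 1). Between tissues in GFP+ cells, log2(TPM + 1) gave 0.22 for Cnn1 and 0.12 for Actg2, and limma-voom gave -0.012 for Myocd. Without 1 library Actg2 ranged there from -0.41 to 0.042 and Myocd from -0.24 to 0.57. In GFP− cells, leaving out 1 library gave -0.24 to 0.66 for Tagln, -0.22 to 0.43 for Myocd, -0.40 to 0.51 for Lmod1 and -0.085 to 0.50 for Synpo2. Lmod1 was 0.16 by limma-voom, 0.52 on log2(TPM + 1) and 0.085 with the replicate block. For the difference of effects Myocd was -0.12 by limma-voom, -0.64 on log2(TPM + 1), -0.072 with the replicate block and -0.33 to 0.51 without 1 library. The cause of these changes was not tested. Depth limits Myocd, with 13 to 77 counts per GFP+ library, and 3 libraries a group limit every test.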
